A study of Mus musculus with 10 samples.

Results

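DNA damage kinases and the genes of DNA repair are described here as a set of 47 mouse genes, each found by its symbol on 1 row of a table of 17053 genes. The rule names symbols and no value, but the set was chosen by someone who knew measured values. Among these were the levels of Slf1 and Gen1 in cells given 4-thiouridine (4sU) against cells given uridine, and which other values weighed on the choice is not recorded. Comparisons with the unconverted 4sU libraries are therefore given for these genes as a description. The converted libraries, which that contrast did not use, are set against untreated cells with a test over all genes. Cells of the converted libraries were given 4sU as well. Calls there are thus not independent of the choice, least of all for Slf1 and Gen1. RNA came from NIH-3T3 cells, an established mouse fibroblast line of wild-type genotype, in 10 libraries that form 5 groups of 2, with replicate letters A and B in each group. Untreated cells received no nucleoside, uridine cells received 800 µM uridine for 2 h, and the other groups received 800 µM 4sU for 2 h. The thiolated nucleoside 4sU takes the place of uridine in RNA made while it is present. Its RNA was sequenced as it was (unconverted 4sU), after iodoacetamide (SLAM) or after osmium tetroxide with an ammonium salt (TUC), and both chemistries make labelled bases read as T-to-C changes. The study asks how TUC chemistry compares with SLAM chemistry in its bias on quantification.

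When DNA breaks or a replication fork stalls, the kinases Atm, Atr and Prkdc phosphorylate many proteins, and Chek1 and Chek2 carry the signal to the cell cycle. Broken ends are then rejoined directly or copied from the sister chromatid by homologous recombination, cross-links are cleared by the Fanconi pathway, bulky or mismatched bases are cut out by excision repair, and translesion polymerases copy past damage that remains. Dividing fibroblasts express most of these genes at modest levels, and several of the kinases and recombination factors have long transcripts.

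Levels are given as CPM, the count of a gene scaled to a common library size, with edgeR's TMM factors between libraries. Library totals ranged from 27094155 to 33785608 counts, and the 47 genes together took 1872 and 1821 CPM in untreated A and B, 1827 and 1881 in uridine, 1583 and 1584 in unconverted 4sU, 1335 and 1443 in SLAM and 1420 and 1385 in TUC. Their summed level was thus lower in every library exposed to 4sU than in every library that was not. All 10 fibroblast markers examined were detected, with a summed level of 17206 to 25408 CPM, while 3 of 5 epithelial markers were listed and summed to at most 0.159 CPM. The SLAM replicates stood farther apart than those of the other groups (chi-square per degree of freedom 78.1, against 38.4 to 44.3 in the others). Blood markers summed to 1.02 to 2.23 CPM and endothelial markers to 0.347 to 1.30 CPM. Whether the replicates were grown as separate cultures is not stated in the labels, and the spread behind every p-value may therefore be technical. In RefSeq's annotation 11 of the 47 genes (Trp53bp1, Gen1, Smc6, Fanca, Fancd2, Fanci, Fancl, Msh6, Ddb2, Xrcc6 and Rev1) overlap another gene of the table, and how shared reads were counted is not given in the sources used here, so their counts are uncertain.

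The window from 250 bases before to 50 bases after the transcription start is printed for Atm, Gen1, Slf1 and Blm, 4 genes of the set with large losses against untreated cells in both chemistries. They were chosen after their values were seen. Sequences are RefSeq's, on GRCm38.p6, which held a window for 37 of the 47 genes, and each is read 5′ to 3′ on the gene's own strand, which is the minus strand for all 4. Capitals mark the letters GCGGGAA (the core of an E2F site, used by cell-cycle genes), CCGGAAG (an ETS core) and CCAAT, on either strand. The Atm window lies at chr9:53536622-53536921, that of Gen1 at chr12:11265758-11266057, that of Slf1 at chr13:77135419-77135718 and that of Blm at chr7:80534949-80535248.
Atm: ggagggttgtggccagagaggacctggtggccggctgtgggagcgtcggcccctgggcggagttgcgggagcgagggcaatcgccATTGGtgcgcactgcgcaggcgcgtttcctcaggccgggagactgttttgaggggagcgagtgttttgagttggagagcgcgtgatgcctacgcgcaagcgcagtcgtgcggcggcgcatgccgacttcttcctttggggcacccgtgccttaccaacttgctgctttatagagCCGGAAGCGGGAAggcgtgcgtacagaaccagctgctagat
Gen1: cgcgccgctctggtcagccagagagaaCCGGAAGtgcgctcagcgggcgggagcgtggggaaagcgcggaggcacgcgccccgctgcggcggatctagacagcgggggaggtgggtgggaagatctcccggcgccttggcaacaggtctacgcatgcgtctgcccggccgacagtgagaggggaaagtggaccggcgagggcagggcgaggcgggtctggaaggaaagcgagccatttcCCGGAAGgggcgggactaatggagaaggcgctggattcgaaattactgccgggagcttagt
Slf1: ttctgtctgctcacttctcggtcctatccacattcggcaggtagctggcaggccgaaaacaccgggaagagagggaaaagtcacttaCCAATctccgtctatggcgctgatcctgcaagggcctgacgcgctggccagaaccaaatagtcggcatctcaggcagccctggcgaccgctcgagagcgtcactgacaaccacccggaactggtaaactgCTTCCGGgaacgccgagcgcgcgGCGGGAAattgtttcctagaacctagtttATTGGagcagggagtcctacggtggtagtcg
Blm: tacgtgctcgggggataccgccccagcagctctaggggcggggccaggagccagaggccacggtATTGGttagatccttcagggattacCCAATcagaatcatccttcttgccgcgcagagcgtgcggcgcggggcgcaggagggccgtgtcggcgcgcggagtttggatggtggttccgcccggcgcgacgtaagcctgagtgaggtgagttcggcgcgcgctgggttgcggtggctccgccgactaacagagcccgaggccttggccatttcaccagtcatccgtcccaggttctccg
These letters were picked, after their matches were counted, from 14 strings searched on both strands. In Atm the ETS and E2F letters share a base. Slf1 held 4 matches, Atm 3, and Gen1 and Blm 2 each, with no E2F letters in the windows of Gen1 and Blm. Over the set, GCGGGAA stood in a window of 12 of 37 genes (32.4%, against 4.6% of 32851 RefSeq windows). CCGGAAG stood in 9 (24.3% against 8.86%) and CCAAT in 18 (48.6% against 37.4%). The RefSeq windows were not limited to genes tested here or matched to those of the set in base composition. A gene of the set counted if any of its windows matched, while RefSeq windows were counted singly, so these percentages differ in unit. The 4 printed windows held 57.7 to 67% G and C. A match is a run of letters and not a shown binding site.

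**Figure D1:**
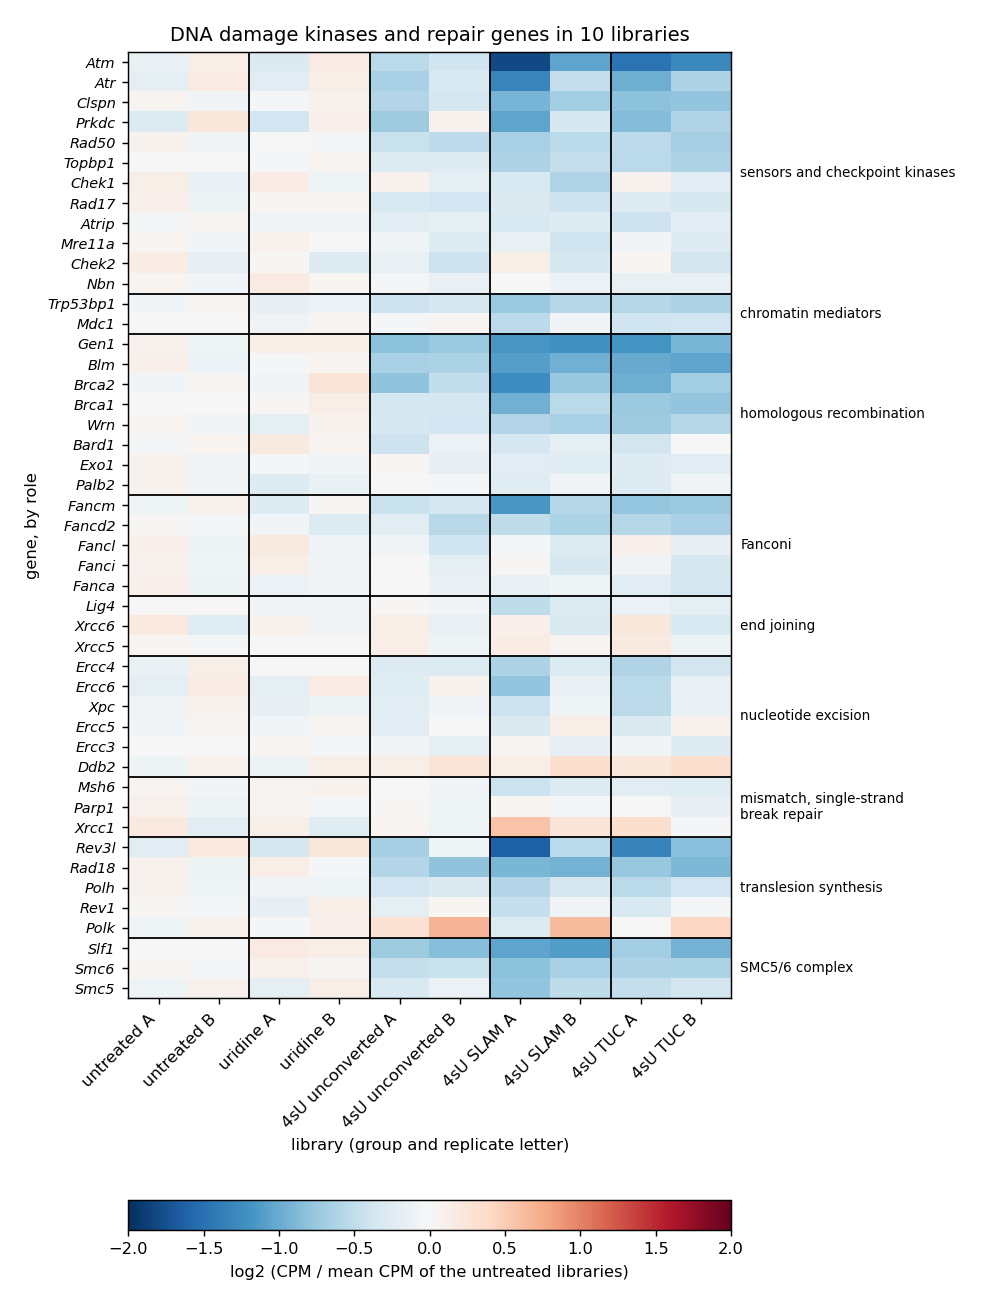
Level of the 47 genes in each of the 10 libraries, as log2 of CPM over the mean CPM of the untreated libraries (colour; blue lower, red higher), with genes in rows by role and libraries in columns by group and letter. Uridine columns are close to white, the 4sU columns turn blue in many rows, and Atm, Gen1, Blm and Slf1 are among the darkest.

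In untreated cells the most abundant transcripts per kilobase of deposited gene length were those of Parp1, which senses DNA nicks, at 37.5 CPM per kb, Topbp1, an activator of Atr, at 34.2, the mismatch sensor Msh6 at 33.4 and Smc6 at 24.2. The kinase genes were far lower on the same scale, with Chek1 at 6.24 CPM per kb, Chek2 at 3.71, Atm at 3.22, Atr at 2.97 and Prkdc last of the 47 at 1.14. The length is as deposited, and which length it is was not stated. Against untreated cells, uridine called 0 of the 47 genes with edgeR's quasi-likelihood test (adjusted p under 0.05; 0% of all 12218 genes tested), and 0 with the replicate letter as a block (0.00818% of all genes higher and 0% lower). At an unadjusted p under 0.05 it gave 0 of the set and 46 of all genes, and DESeq2 also called 0 of the set. The median log2 fold change of the set was 0.0028, with a range from -0.19 to 0.16.

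Atm, Gen1, Slf1 and Blm had the largest called losses in SLAM libraries against untreated cells. Against untreated cells, 19 of the 47 genes were lower and 0 higher in SLAM libraries (adjusted p under 0.05, edgeR without a block; 11.3% of all genes lower and 7.61% higher). In TUC libraries 13 were lower and 0 higher (4.81% of all genes lower and 1.34% higher). The median log2 fold change of the set was -0.39 in SLAM and -0.33 in TUC, beside 0.02 for all genes in each. Genes of the set are longer at the median, at 4770 against 3307 bases. An alternative chosen after seeing the data removed each library's trend on length. The medians then were -0.25 and -0.22, beside 0.01 for all genes in each. Each comparison holds 4sU exposure and conversion together, and the unconverted 4sU libraries described further on hold exposure alone. Both comparisons use the same untreated libraries.

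Letter B was higher than letter A in all 5 groups for 14 of the genes and lower in all 5 for 11. Such a count was not made over all genes, where the A minus B differences correlated between groups at 0.584 to 0.690. The letter was also fitted as a block. With it, 34 genes of the set were lower and 1 higher in SLAM (29.9% and 29.2% of all genes), and 29 lower and 0 higher in TUC (26.6% and 25.5% of all genes). Without the block, the count in SLAM was 6 when untreated A or untreated B was left out, 9 without SLAM A and 22 without SLAM B. The count in TUC was 0 when any 1 of untreated A, untreated B, TUC A or TUC B was left out. With the block these counts ran from 29 to 34 in SLAM and from 25 to 30 in TUC.

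**Figure D2:**
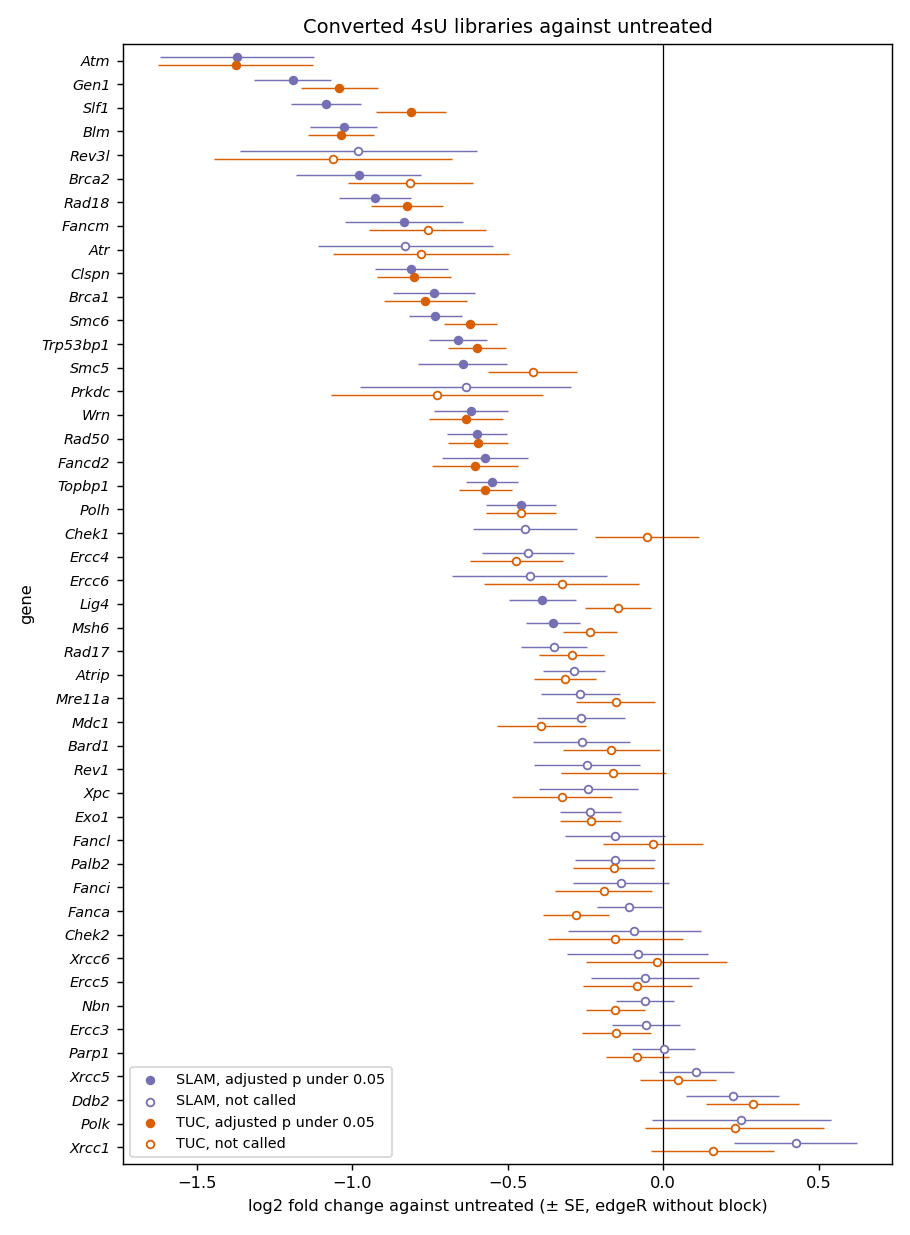
Log2 fold change (x axis, with 1 SE from edgeR without a block) of each of the 47 genes (y axis, ordered by the SLAM value) in SLAM and TUC libraries against untreated, 2 libraries per group. Filled points have an adjusted p under 0.05; 42 of 47 genes lie left of 0 in SLAM and 43 of 47 in TUC.

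Among sensors and checkpoint kinases, Atm, the kinase that answers to broken ends, showed the largest loss. Atm measured 29.3 and 35.1 CPM in untreated A and B, 26.2 and 36.0 in uridine, 22.2 and 24.5 in unconverted 4sU, 9.26 and 15.6 in SLAM and 11.6 and 13.2 in TUC. Every 4sU-exposed library lay below every other library, and the converted libraries lay below the unconverted ones. Atm fell by 1.37 on the log2 scale in SLAM (SE 0.25, edgeR adjusted p = 0.0118) and by 1.37 in TUC (SE 0.25, adjusted p = 0.0264). Its mean was 12.4 ± 4.46 CPM in SLAM and 12.4 ± 1.11 in TUC, against 32.2 ± 4.08 in untreated cells (SD, n = 2 each).

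Atr, the kinase that answers to stalled forks, measured 21.2 and 26.9 CPM in untreated A and B, 20.9 and 26.1 in uridine, 15.3 and 19.5 in unconverted 4sU, 9.67 and 17.4 in SLAM and 12.3 and 15.8 in TUC. The 4sU-exposed libraries again lay below all others, and letter B was the higher of each group. Its log2 fold change of -0.83 in SLAM (SE 0.28) did not pass without the block (adjusted p = 0.0762) and passed with it (adjusted p = 3.28e-06). In TUC it was -0.78 (SE 0.28; adjusted p = 0.13 without and 1.29e-05 with the block).

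Prkdc, the catalytic subunit of the kinase that acts in end joining, measured 11.9 and 16.8 CPM in untreated A and B, 11.0 and 15.5 in uridine, 8.79 and 15.2 in unconverted 4sU, 6.90 and 11.5 in SLAM and 7.90 and 9.43 in TUC. Its letters stood so far apart that the exposed and unexposed ranges overlapped. The log2 fold change was -0.64 in SLAM (SE 0.34) and -0.73 in TUC (SE 0.34), with adjusted p = 0.22 and 0.21 without the block and 8.29e-05 and 4.72e-05 with it. Prkdc has the longest gene of the set, and with each library's trend on length removed, an alternative chosen after seeing the data, its blocked values were -0.017 in SLAM (adjusted p = 0.89) and -0.12 in TUC (0.37), so that the call ended in both.

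Chek1, the effector kinase downstream of Atr, measured 25.7 and 21.7 CPM in untreated A and B, 26.2 and 22.2 in uridine, 25.0 and 20.9 in unconverted 4sU, 19.2 and 15.7 in SLAM and 25.2 and 20.5 in TUC. Both SLAM libraries lay below every other library. The log2 fold change in SLAM was -0.44 (SE 0.17, adjusted p = 0.10; with the block SE 0.07 and adjusted p = 4.20e-05). Chek2, the effector downstream of Atm, measured 9.39 and 7.51 CPM in untreated A and B, 8.57 and 7.09 in uridine, 7.62 and 6.33 in unconverted 4sU, 9.12 and 6.76 in SLAM and 8.66 and 6.56 in TUC. Its groups overlapped throughout, letter A was the higher in all of them, and neither fit called it in any comparison.

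The partners of these kinases were lower in part. Clspn, which couples Atr to Chek1, measured 65.4 and 60.4 CPM in untreated A and B, 62.2 and 67.0 in uridine, 42.1 and 49.8 in unconverted 4sU, 33.1 and 38.7 in SLAM and 35.7 and 36.5 in TUC, and it fell in TUC by 0.80 (SE 0.12, adjusted p = 0.0159). Of the 12 sensors and kinases, 4 were called lower in SLAM and 4 in TUC, namely Atm, Clspn, Rad50 and Topbp1 in each. With the block 10 and 8 were. Shares of all genes called lower were 11.3% and 4.81% without the block, and 29.9% and 26.6% with it. Atrip, the partner of Atr, and Rad17, which loads the checkpoint clamp, lay below all unexposed libraries in every exposed one and were called with the block only. Nbn, a subunit of the end-binding complex with Rad50, was called in neither fit against untreated cells. Of the chromatin mediators that gather at breaks, Trp53bp1 was called lower in both chemistries, and Mdc1 with the block only. With the length trend removed neither was called in either fit, Trp53bp1 stood at -0.12 in SLAM and -0.08 in TUC, and Mdc1 in SLAM turned to 0.13. Mre11a, the third subunit of that complex, was called lower with the block in SLAM.

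**Figure D3:**
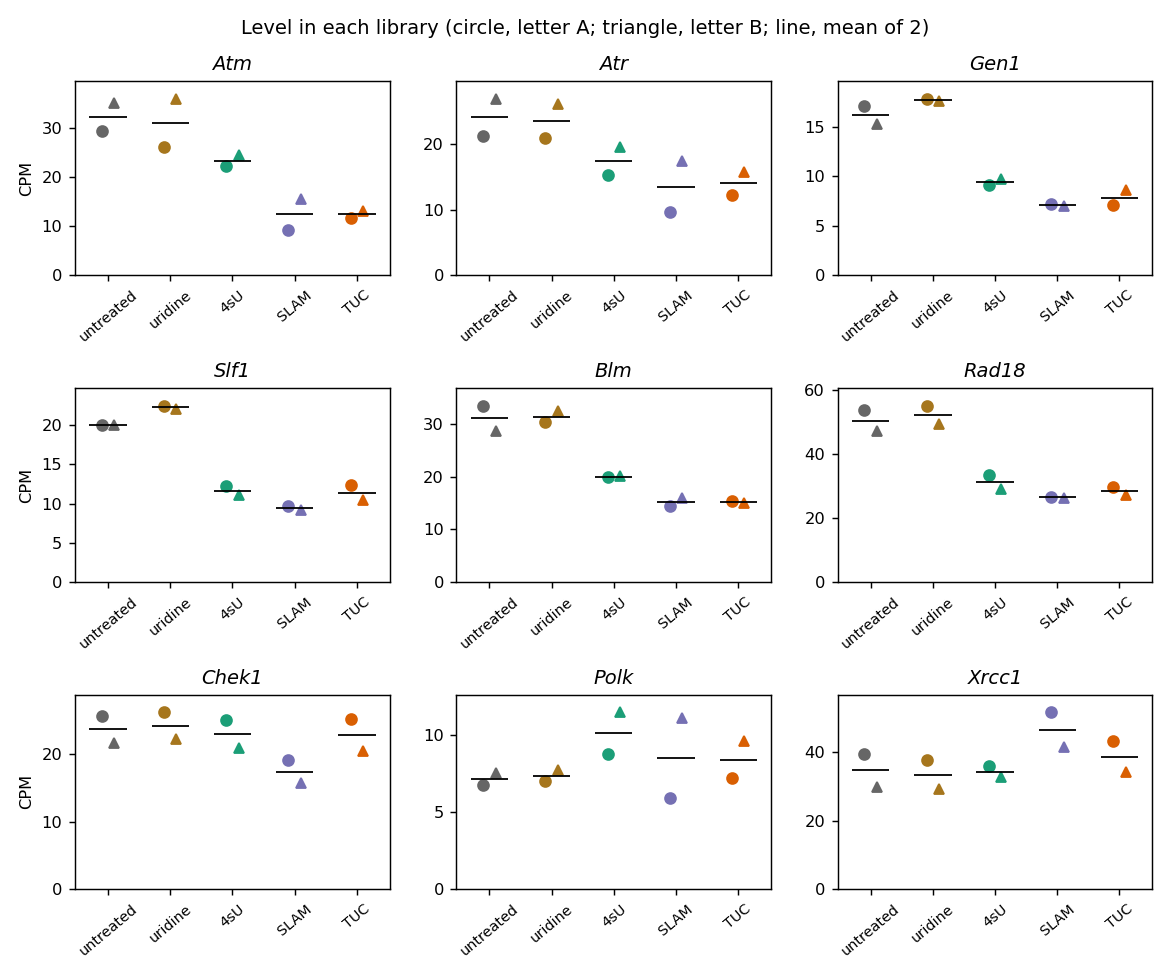
Level in CPM (y axis, from 0) of 9 genes in each library of the 5 groups (x axis), with circles for letter A, triangles for letter B and a line at the mean of 2. Atm, Gen1, Slf1, Blm and Rad18 step down from untreated and uridine to every 4sU group, Chek1 is lowest in SLAM, and Polk and Xrcc1 do not step down.

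Among genes of homologous recombination, Gen1, a nuclease that resolves Holliday junctions, measured 17.1 and 15.3 CPM in untreated A and B, 17.8 and 17.6 in uridine, 9.14 and 9.70 in unconverted 4sU, 7.21 and 6.99 in SLAM and 7.09 and 8.63 in TUC. Every exposed library lay far below every unexposed one. Gen1 fell by 1.19 in SLAM (SE 0.12, adjusted p = 0.00368) and by 1.04 in TUC (SE 0.12, adjusted p = 0.0129). Gen1 and Smc6 overlap each other on the genome. Whether they share reads was not examined, and how such reads were counted is not given.

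Blm, a helicase that dissolves recombination intermediates, measured 33.5 and 28.8 CPM in untreated A and B, 30.4 and 32.4 in uridine, 19.9 and 20.2 in unconverted 4sU, 14.5 and 16.0 in SLAM and 15.4 and 15.0 in TUC. It fell by 1.03 in SLAM (SE 0.11, adjusted p = 0.00368) and by 1.04 in TUC (SE 0.11, adjusted p = 0.00916). Brca2, which loads the recombinase onto DNA, measured 17.7 and 19.3 CPM in untreated A and B, 17.8 and 22.0 in uridine, 10.6 and 13.2 in unconverted 4sU, 7.83 and 10.9 in SLAM and 9.43 and 11.6 in TUC. All its exposed libraries lay below all others. Brca2 fell by 0.98 in SLAM (SE 0.20, adjusted p = 0.0168), and its value of -0.81 in TUC missed the threshold without the block (adjusted p = 0.0547) and passed with it (adjusted p = 2.34e-06).

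Brca1, a ubiquitin ligase subunit that directs breaks to recombination, measured 31.8 and 31.7 CPM in untreated A and B, 32.1 and 34.8 in uridine, 25.0 and 25.0 in unconverted 4sU, 16.3 and 21.8 in SLAM and 18.9 and 18.4 in TUC. It was called lower in both chemistries, as was the helicase gene Wrn. Of the 8 recombination genes 5 were called lower in SLAM and 4 in TUC without the block, beside 11.3% and 4.81% of all genes. With it 7 and 6 were, beside 29.9% and 26.6%. Palb2, which links Brca1 to Brca2, was called in no fit. Exo1, a resection nuclease, was called lower with the block only in both chemistries, and with the length trend removed as well it turned to 0.21 and 0.19, both called higher (adjusted p = 0.0112 and 0.0357). Bard1, the partner of Brca1, was called lower with the block in SLAM.

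Of the 5 Fanconi genes, 2 were called lower in SLAM and 1 in TUC without the block, beside 11.3% and 4.81% of all genes. With it 3 in each were, beside 29.9% and 26.6%. Fancm, the translocase that recognises stalled forks, measured 29.5 and 33.5 CPM in untreated A and B, 26.3 and 31.9 in uridine, 23.1 and 24.8 in unconverted 4sU, 14.0 and 21.2 in SLAM and 18.4 and 18.9 in TUC. It fell by 0.83 in SLAM (SE 0.19, adjusted p = 0.0227), where SLAM A was far below SLAM B, and it was called with the block in TUC. Fancd2, a subunit of the clamp that closes on cross-linked DNA, was called lower in both chemistries. Fanci, which forms that clamp with Fancd2, was called in neither fit against untreated cells. Fancl was called lower with the block in SLAM, and Fanca, a core subunit of the pathway's ligase, in TUC.

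Of the 5 translesion genes, 2 were called lower in SLAM and 1 in TUC without the block, beside 11.3% and 4.81% of all genes. With it 4 and 3 were, beside 29.9% and 26.6%. Rad18, the ubiquitin ligase that calls in translesion polymerases, measured 53.6 and 47.1 CPM in untreated A and B, 55.1 and 49.4 in uridine, 33.5 and 28.9 in unconverted 4sU, 26.7 and 26.2 in SLAM and 29.8 and 27.1 in TUC. It fell by 0.93 in SLAM (SE 0.12, adjusted p = 0.00491) and by 0.82 in TUC (SE 0.12, adjusted p = 0.0159). Rev3l, the catalytic subunit of polymerase zeta, measured 36.4 and 48.2 CPM in untreated A and B, 33.4 and 49.4 in uridine, 26.8 and 40.1 in unconverted 4sU, 13.7 and 29.1 in SLAM and 16.8 and 23.6 in TUC. Its letters differed in every group, so that a log2 fold change of -0.98 in SLAM and -1.06 in TUC (SE 0.38 and 0.38) did not pass without the block (adjusted p = 0.11 and 0.13) and passed with it (adjusted p = 9.25e-07 and 1.28e-06). Polk, a polymerase that copies past bulky adducts, measured 6.78 and 7.57 CPM in untreated A and B, 7.01 and 7.70 in uridine, 8.79 and 11.5 in unconverted 4sU, 5.91 and 11.1 in SLAM and 7.21 and 9.59 in TUC. Both unconverted 4sU libraries lay above every unexposed one, SLAM A was the lowest of all 10, and it was called in neither chemistry against untreated cells. Polh, which copies past ultraviolet lesions, was called lower in SLAM without the block and in TUC with it, and Rev1 in SLAM with it.

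All 3 genes around the Smc5 and Smc6 complex were called lower in SLAM without the block, beside 11.3% of all genes. Slf1, which links that complex to Rad18, measured 20.0 and 20.0 CPM in untreated A and B, 22.5 and 22.0 in uridine, 12.2 and 11.1 in unconverted 4sU, 9.64 and 9.22 in SLAM and 12.4 and 10.4 in TUC. It fell by 1.08 in SLAM (SE 0.11, adjusted p = 0.00368) and by 0.81 in TUC (SE 0.11, adjusted p = 0.0159). Smc6 was called in both chemistries, and Smc5 in SLAM without the block and in TUC with it.

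In SLAM, 1 of 3 end joining genes and 0 of 6 nucleotide excision genes were lower without the block. Of 3 mismatch and nick repair genes (Msh6, Xrcc1, Parp1), 1 was lower there, beside 11.3% of all genes. With the block these counts were 1, 3 and 1, in the same order, beside 29.9%. In TUC they were 0 each without the block (4.81% of all genes), and 0, 3 and 1 with it (26.6%). The Ku subunits of end joining, Xrcc5 and Xrcc6, were called in no comparison, and Lig4, the ligase of that pathway, was called lower in SLAM. Of the 6 genes of nucleotide excision repair 0 were called without the block, and Ercc4, Ercc6 and Xpc were lower with it in both chemistries. With the length trend removed as well, Ercc4 kept its call in both, and Ercc6 and Xpc lost theirs. Ddb2, which recognises ultraviolet damage, measured 3.63 and 4.13 CPM in untreated A and B, 3.60 and 4.20 in uridine, 4.22 and 4.64 in unconverted 4sU, 4.24 and 4.82 in SLAM and 4.56 and 4.90 in TUC. It was the 1 gene of the set whose exposed libraries all lay above the unexposed ones, by small steps, and it is named after its values were seen; neither fit called it. Parp1 was called in no comparison, and Msh6 was lower in SLAM without the block and in TUC with it. Xrcc1, the scaffold of nick repair, measured 39.5 and 29.8 CPM in untreated A and B, 37.7 and 29.2 in uridine, 36.0 and 32.6 in unconverted 4sU, 51.7 and 41.5 in SLAM and 43.3 and 34.1 in TUC. In SLAM it was higher by 0.43 (SE 0.20, adjusted p = 0.16 without and 5.61e-05 with the block).

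Across all libraries, 19 of the 47 genes (40.4%) lay below every unexposed library in every exposed one, and 1 (2.13%) lay above. Of all 12218 genes 11.8% lay below and 6.8% above. These counts include the unconverted 4sU libraries and are a description. A smaller number of transcripts per cell and a smaller share of all RNA cannot be told apart in CPM.

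Unconverted 4sU libraries show what exposure alone went with, since no chemistry was applied to them. Slf1 measured 12.2 and 11.1 CPM there against 22.5 and 22.0 in uridine, and Gen1 9.14 and 9.70 against 17.8 and 17.6. Rad18 measured 33.5 and 28.9 against 55.1 and 49.4, Blm 19.9 and 20.2 against 30.4 and 32.4, and Smc6 97.7 and 99.2 against 144 and 137. Each of these pairs lies clearly apart. Polk was higher instead, at 8.79 and 11.5 against 7.01 and 7.70. Against uridine, 2 genes of the set, Slf1 and Gen1, passed the threshold without the block (0.254% of all genes), and 20 lower and 1 higher, Polk, with it (13.3% and 6.48% of all genes). The median log2 fold change was -0.19, beside 0.01 for all genes. Against untreated cells, 0 passed without the block (0.164% of all genes; 15 of the set and 1102 of all genes at an unadjusted p under 0.05, and 6 of the set with DESeq2), and 21 lower and 1 higher with it (12.9% and 6.97%), with a median of -0.23. With the block and 1 library left out, the 21 calls against uridine became 14 without uridine A or unconverted 4sU A, 10 without uridine B and 9 without unconverted 4sU B, and the 22 against untreated became 14 without untreated A or unconverted 4sU A and 9 without unconverted 4sU B. Without the block, the 2 calls against uridine became 0 when any 1 of the 4 libraries was left out. These counts rest on the contrast that was known when the set was chosen, so they carry no weight as a test of it. The members nearest the threshold without the block against uridine were Gen1 inside it (adjusted p = 0.0375) and Rad18 outside it (adjusted p = 0.0594).

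Other genes of the damage response were read from a list of 81 repair genes outside the set, all of which were tested. Their median log2 fold change was -0.02 in SLAM and -0.02 in TUC against untreated cells, nearer 0 than those of the set. In SLAM 13 of the 81 (16%) were lower and 0 higher without the block, beside 11.3% and 7.61% of all genes. With the block 29 (35.8%) were lower and 15 (18.5%) higher, beside 29.9% and 29.2% of all genes. The largest losses were those of Slf2, the partner of Slf1, by 0.99 (adjusted p = 0.0174), Rif1, a partner of Trp53bp1, by 0.97 (0.0477), the mismatch repair gene Mlh3 by 0.93 (0.00942) and the nuclease gene Fan1 by 0.91 (0.0145). In TUC 5 were lower, led by Fan1 at 1.21 (adjusted p = 0.017), and 0 higher. These are 6.17% and 0% of the 81, beside 4.81% and 1.34% of all genes. With the block 20 (24.7%) were lower and 14 (17.3%) higher in TUC, beside 26.6% and 25.5% of all genes. Outside both lists, 3 genes of the p53 response were named as references with earlier results known, and they do not stand for p53 targets at large. The p53 target Cdkn1a, an inhibitor of cell-cycle kinases, rose by 1.41 in SLAM and 1.47 in TUC (edgeR adjusted p = 0.00117 and 8.31e-04). Mdm2, the ubiquitin ligase that restrains p53, rose by 0.95 and 1.08 (adjusted p = 0.0115 and 0.0182). Trp53 itself, the gene of p53, rose by 0.47 in SLAM (adjusted p = 0.0255) and stood at 0.15 in TUC (0.42), and TUC differed from SLAM by -0.33 with an adjusted p of 0.39 without the block and 0.00136 with it.

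Whether conversion itself went with a change was read by setting each chemistry against unconverted 4sU. The 2 comparisons share the unconverted libraries, which are also those of the contrast known beforehand. Without the block 0 genes of the set passed in SLAM (0.344% of all genes; 14 of the set and 2284 of all at an unadjusted p under 0.05, and 3 of the set with DESeq2). In TUC 0 passed as well (0% of all genes; 8 of the set and 846 of all at an unadjusted p under 0.05, and 0 of the set with DESeq2). With the block 22 were lower and 1 higher in SLAM (21.6% and 20% of all genes), and 15 lower and 1 higher in TUC (14.2% and 11.6%). The blocked SLAM count of 23 became 13 without unconverted 4sU A and 15 without SLAM A, and the TUC count of 16 became 5 without unconverted 4sU A, 6 without unconverted 4sU B and 2 without TUC B. The set's median was -0.20 in SLAM and -0.16 in TUC, and that of all genes was 0.00 and 0.01.

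Atm showed the largest difference in each of these comparisons, with a mean of 23.4 ± 1.66 CPM (SD, n = 2) in unconverted 4sU. Its blocked log2 fold change was -0.92 in SLAM (SE 0.11, adjusted p = 1.64e-05) and -0.92 in TUC (SE 0.11, adjusted p = 2.26e-04). Rev3l came next, at -0.67 (adjusted p = 2.31e-04) and -0.72 (7.05e-04). Xrcc1 was the gene called higher in SLAM, by 0.43 with the block (adjusted p = 1.63e-04). In TUC the gene called higher was Fancl, a ubiquitin ligase, by 0.20 (adjusted p = 0.0377).

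Gene length moved with these differences. The genes of the set had a median deposited length of 4770 bases, from 2276 for Chek2 to 12647 for Prkdc, against 3307 for all genes tested and 3247 for the 81 other repair genes. Spearman's correlation of length with the log2 fold change across the 47 genes was -0.72 in SLAM and -0.73 in TUC against unconverted 4sU, and -0.39 in unconverted 4sU against untreated cells. Over all 12218 genes it was -0.51, -0.63 and -0.41. These correlations are a description across genes that share the same libraries. In TUC the 7 genes over 8000 bases had a median of -0.31 against -0.36 for all genes of that length. In SLAM against unconverted 4sU the 7 genes of the set over 8000 bases had a median of -0.36, the same as all 645 genes of that length, and the 16 genes between 2000 and 4000 bases had 0.01 against 0.05. The set's median lay lower in the bin from 4000 to 6000 bases, which holds 19 of its genes, at -0.20 against -0.11 in SLAM and -0.19 against -0.11 in TUC. For the 5 genes from 6000 to 8000 bases it was -0.27 against -0.25 in SLAM and -0.36 against -0.24 in TUC. In unconverted 4sU against untreated cells the set's median lay lower in each bin: -0.11 against 0.03 between 2000 and 4000 bases, -0.20 against -0.05 up to 6000, -0.34 against -0.12 up to 8000 and -0.36 against -0.18 above.

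**Figure D4:**
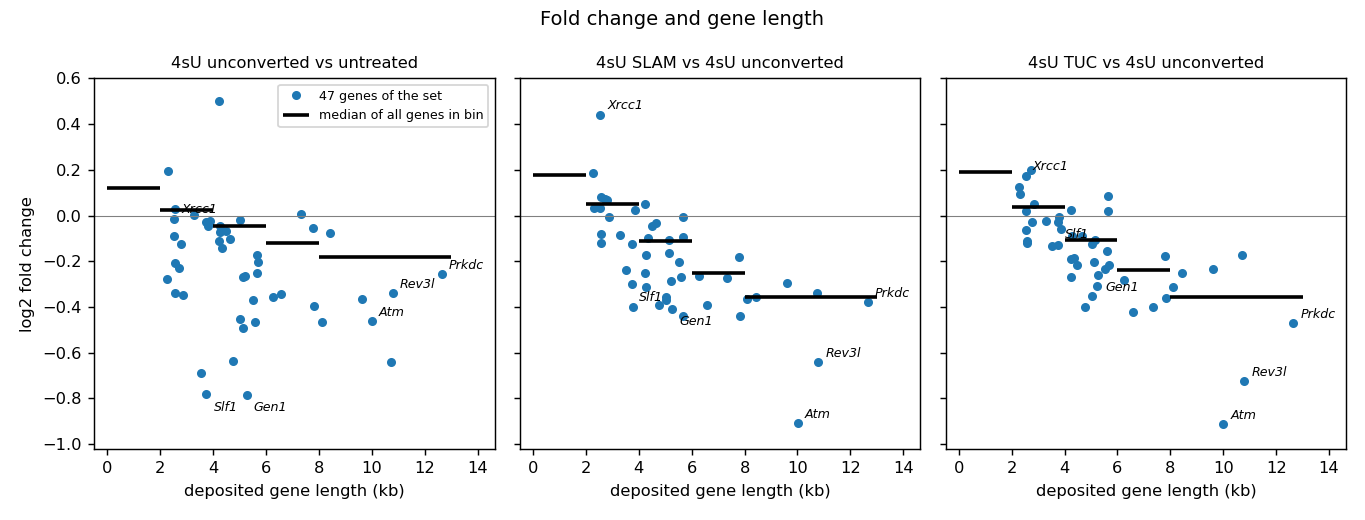
Log2 fold change (y axis, edgeR without a block) against deposited gene length in kb (x axis) for the 47 genes, in unconverted 4sU against untreated (left), SLAM against unconverted 4sU (middle) and TUC against unconverted 4sU (right), with black lines at the median of all genes in each length bin (the last bin is open above). In the middle and right panels most points follow the falling lines, with Atm and Rev3l below them; in the left panel Slf1 and Gen1 lie far below their bins.

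With each library's trend on length removed, 15 genes of the set were lower and 0 higher in SLAM against untreated cells. In TUC 7 were lower and 0 higher. Of all genes, 17.8% and 4.56% were called in either direction. Of the 19 calls in SLAM 13 were kept, and Fancd2, Lig4, Msh6, Rad50, Trp53bp1 and Wrn lost theirs while Atrip and Rad17 gained one. Of the 13 calls in TUC 6 were kept, and Brca1, Fancd2, Rad50, Smc6, Topbp1, Trp53bp1 and Wrn lost theirs while Polh gained one. With the block the counts were 27 lower and 3 higher in SLAM (26.4% and 26.4% of all genes). In TUC they were 24 lower and 1 higher (18.6% and 19%). Of the blocked calls made before the removal, 25 of 35 in SLAM and 21 of 29 in TUC were kept in the same direction. In SLAM 5 blocked calls changed sign (Bard1, Ercc6, Exo1, Mdc1 and Mre11a), as did 2 in TUC (Ercc6 and Exo1). Chek2, Ercc3 and Nbn gained a call in both, and Polk gained a call as higher in SLAM. Slf1 then differed by 1.04 below untreated cells in SLAM (adjusted p = 0.00219), Gen1 by 0.96 (0.00447), Rad18 by 0.91 (0.00387), Blm by 0.87 (0.00335) and Atm by 0.85 (0.00386). Brca2 kept its call in SLAM, lower by 0.41 (0.0134), a smaller difference than without the removal. Against unconverted 4sU the set's median became -0.07 in SLAM and -0.06 in TUC, and the calls with the block became 11 lower and 1 higher in SLAM (17.8% and 18.2% of all genes), and 5 lower and 0 higher in TUC (3.54% and 4.94%). In SLAM 11 of the 23 blocked calls against unconverted 4sU were lost, and Brca2, Prkdc and Trp53bp1 among them changed sign. In TUC 11 of 16 were lost, and Ercc6 and Trp53bp1 among them changed sign. Prkdc in SLAM stood at 0.03 without and 0.02 with the block.

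Few genes of the set differed between the chemistries. In TUC against SLAM 0 genes of the set passed without the block (0% of all genes; 2 of the set and 1205 of all at an unadjusted p under 0.05, and 0 of the set with DESeq2), and the median was -0.00065. With the block, Chek1 was 0.39 higher in TUC (SE 0.07, adjusted p = 0.00125), Smc5 0.23 higher (0.0157), and Xrcc1 lower by a log2 fold change of -0.27 (0.0124), where 10% of all genes were higher and 10.1% lower. These 3 calls became 5 without SLAM A, 10 without SLAM B, 1 without TUC A and 2 without TUC B. Chek1 measured 25.2 and 20.5 CPM in TUC against 19.2 and 15.7 in SLAM, and both TUC libraries exceeded both SLAM libraries. Atm, with 11.6 and 13.2 against 9.26 and 15.6, overlapped.

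The new-to-total RNA ratio (NTR) is the share of a gene's RNA that carries the label and so was made during the 2 h. The deposited columns do not name the quantity, which is read as the NTR because it lay near 0 in libraries without conversion: the set's median there was 0.75 to 1.64%. In converted libraries the set's median was 60.9% in SLAM A, 69.8% in SLAM B, 63.2% in TUC A and 72.4% in TUC B, against 52.3, 61.1, 54.4 and 63.0% over the 10202 genes that averaged at least 100 reads. Letter B was the higher in both chemistries.

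**Figure D5:**
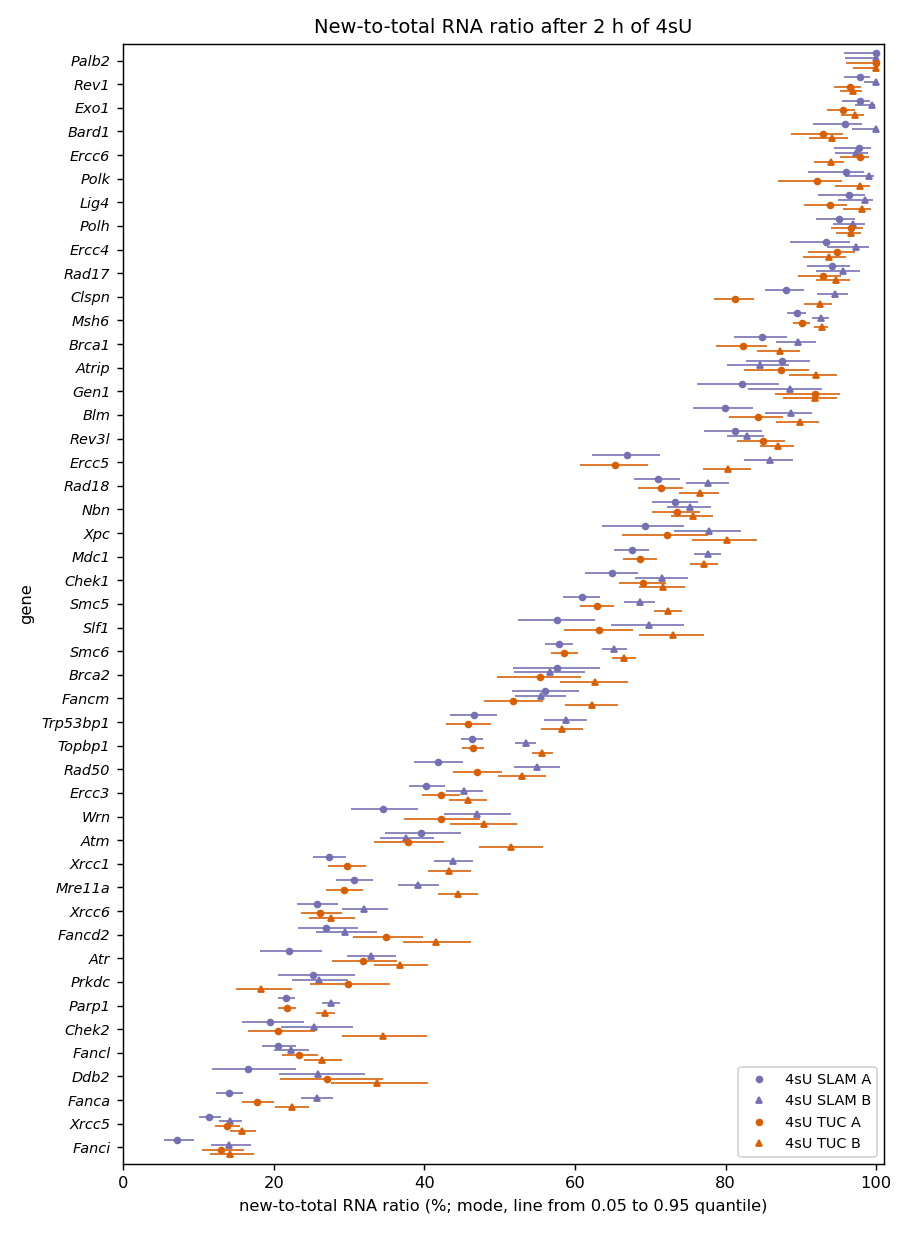
NTR in percent (x axis) of the 47 genes (y axis, ordered by the mean of the SLAM libraries) in the 4 converted libraries, with lines from the 0.05 to the 0.95 quantile of the deposited estimate. Palb2 sits at 100% in all 4, and Fanci and Xrcc5 lie at the other end, between 7.15 and 15.8%.

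Recombination and translesion genes made up 6 of the 8 highest mean ratios in SLAM; by the TUC mean Ercc4 takes the place of Bard1 among the highest 8. Palb2 was at 100% in all 4 converted libraries, with 0.05 quantiles of 95.7 to 97.0%. Rev1, a scaffold polymerase of translesion synthesis, measured 97.9 and 100.0% in SLAM A and B and 96.5 and 96.8% in TUC A and B. Exo1, Bard1, Ercc6, Polk, Lig4, Polh and Ercc4 also averaged above 95% in SLAM. At the other end Fanci measured 7.15 and 14.1% in SLAM A and B and 13.0 and 14.2% in TUC A and B, and Xrcc5 11.4 and 14.2% in SLAM A and B and 13.8 and 15.8% in TUC A and B. Fanca, Ddb2, Fancl, Chek2, Parp1 and Prkdc completed the lowest 8. The clamp partners differed, since Fancd2 measured 27.0 and 29.4% in SLAM A and B and 35.0 and 41.5% in TUC A and B.

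The 5 kinases spread over this range. Chek1 measured 64.9 and 71.6% in SLAM A and B and 69.0 and 71.7% in TUC A and B, Atm 39.6 and 37.6% in SLAM A and B and 37.8 and 51.5% in TUC A and B, Atr 22.0 and 32.9% in SLAM A and B and 31.8 and 36.8% in TUC A and B, Chek2 19.6 and 25.4% in SLAM A and B and 20.6 and 34.5% in TUC A and B and Prkdc 25.2 and 26.0% in SLAM A and B and 29.8 and 18.4% in TUC A and B. Chek1 was thus above the other kinases in every converted library, and the quantile ranges of the other kinases overlapped in part. Gen1, at 82.2 and 88.6% in SLAM A and B and 91.8 and 91.8% in TUC A and B, and Blm, at 79.8 and 88.7% in SLAM A and B and 84.3 and 89.8% in TUC A and B, were made up mostly of new RNA, while Slf1 measured 57.6 and 69.8% in SLAM A and B and 63.2 and 73.0% in TUC A and B.

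The product of the level and the remainder of the ratio gives the RNA that predates the label. For Atm it was 5.59 to 9.72 CPM over the 4 converted libraries, beside 3.67 to 6.79 CPM of new RNA. For Gen1 it was 0.580 to 1.28 CPM, beside 5.93 to 7.93 CPM of new RNA. The 2 genes that lost most in SLAM thus differed in makeup: most of what remained of Gen1 was new, and more of what remained of Atm was old in SLAM A, SLAM B and TUC A, but not in TUC B. Across the 47 genes, the mean NTR of the SLAM libraries was set against log2 fold changes from unconverted 4sU. Its Spearman correlation was -0.28 with the change in SLAM and -0.18 with that in TUC. Over 10202 genes these were -0.39 and -0.45.

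Between chemistries the NTR of 0 genes of the set differed with limma's test on the logit scale, without the block (0.265% of all genes) and with it (0% of all genes). At an unadjusted p under 0.05 there were 2 of the set (4.26%) without and 7 (14.9%) with the block, beside 2.4% and 7.9% of all genes. The median difference, TUC minus SLAM, was 0.985 percentage points for the set and 0.96 for all genes. Fancd2 had a mean of 38.2 ± 4.65% in TUC and 28.2 ± 1.75% in SLAM (SD, n = 2), a difference chosen after its values were seen and not called (adjusted p = 0.57 with the block).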

How the data were processed

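Total RNA of 10 libraries was sequenced. The authors deposited 1 table of expected counts per gene and library, in which 24.8 to 30.3% of the genes of a library were not whole numbers, and they were rounded here. The same deposited table holds, per the file headers, a posterior mode, a mean and quantiles of a fraction for 8 libraries, read here as the NTR. The submitters' processing notes name cutadapt, Bowtie2 2.3.0 and STAR 2.7.10b, while no source used here gives the genome build, annotation, counter or strand setting. The deposited gene length is of a kind not stated. Another 16 columns of per-sample values were not used.

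Counts were tested with edgeR 4.0.16 (quasi-likelihood, TMM, filterByExpr, 1 term per group over all 10 libraries) in R 4.3.3, with Benjamini-Hochberg adjustment over 12218 genes and a threshold of 0.05, two-sided. NTR was tested with limma 3.58.1 on the logit scale, held between 0.001 and 0.999. The alternatives were DESeq2 1.42.0, library totals, other count filters, leaving out each library, the letter as a block and, chosen after seeing the data, removal of each library's trend on length (loess span 0.3).

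Replicate letters shared deviations: over all 10 pairs of groups the A minus B differences correlated at 0.584 to 0.690, and blocking lowered the common dispersion from 0.0187 to 0.00195. The labels do not say what a letter shares, and the pairing rests on this check. edgeR was also tested on simulated counts.

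Members and lists were chosen with earlier results of these data known. Library values are given for the 5 kinases, Slf1 and Gen1. Per comparison, up to 8 called genes at each end of the fold changes were eligible as well. Of these, library values of Rad50, Smc5, Mdc1 and Fancl are not printed, and those of Smc6 only in part. NTR is named for the 8 highest and 8 lowest. From the other repair genes up to 4 called each way are eligible.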

Additional observations from a re-analysis of the deposited data

How the results depend on the processing

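Counts of genes called in the set are given in both directions together. With the replicate block they were 22 in unconverted 4sU against untreated and 21 against uridine, 35 in SLAM and 29 in TUC against untreated, 23 in SLAM and 16 in TUC against unconverted 4sU, and 3 in TUC against SLAM. With the block and each library left out in turn they ran from 9 to 19, 9 to 14, 29 to 34 (30 and 33 between), 25 to 30 (26 between), 13 to 28 (15 and 18 between), 2 to 11 and 1 to 10 in the same order. Without the block and with each library left out in turn they ran from 6 to 22 in SLAM against untreated, were 0 in TUC against untreated and in unconverted 4sU against uridine, and ran from 0 to 3 for the NTR; a lone library is assumed to vary like the other groups. DESeq2 gave 6 in unconverted 4sU against untreated, 8 against uridine and 3 in SLAM against unconverted 4sU, while its 22 in SLAM and 17 in TUC against untreated lay within 1.5 times the edgeR counts. Library totals gave 1 in unconverted 4sU against untreated and 1 against uridine, and no filter on low counts and a mean of 100 counts or more gave 1 each against untreated. With the length trend removed, which was chosen after seeing the data, the counts were 2 against untreated and 5 against uridine in unconverted 4sU and 7 in TUC against untreated, and with the replicate block in addition 20, 17, 30, 25, 12, 5 and 4 in the order above.

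The 68 named gene results had 1088 alternative values. Of these, 755 kept the status of the fit without the block, whether called or not. A call was lost in 42 and gained in 287, and 4 reversed in sign. Prkdc in SLAM against unconverted 4sU was 0.031 with the length trend removed and 0.021 with the replicate block added, and ran from -0.80 to 0.073 with 1 library left out, the highest without unconverted 4sU B. Atr there ran from -0.85 to 0.00058, the highest without SLAM A; the cause was not tested. For the kinases, Slf1 and Gen1, 27 comparisons were called in neither fit, and 58 of their 432 alternative values changed sign. The median of the set stayed below 0 in all alternatives of the 6 comparisons of a 4sU group with untreated, uridine or unconverted 4sU. Depth limits the lowest genes most, and 2 libraries per group limit every test.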
